A study of Mus musculus with 16 samples.

Results

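Olfactory sensory neurons have to switch an odor response off again, and the genes described here are 9 that take part in doing so: the phosphodiesterases Pde1c and Pde4a, the calcium exchangers Slc24a4 and Slc8a1, the receptor kinase Grk3 (also written Adrbk2), the arrestin Arrb2, the calcium/calmodulin kinase subunits Camk2a and Camk2d, and the regulator of G protein signaling Rgs2. They were taken by annotated symbol from a fixed list of names, which was chosen with earlier results of these data known. Of the 9 genes, 8 had 1 named probeset each among the 22206 gene probesets of the array, and Arrb2 was not analysed here. On all 16 arrays, 6 of the 8 lay above background, the level that 95% of the 23 probesets without a mouse target stayed under on the same array. Grk3 exceeded it on 0 of 16 arrays, and Rgs2 exceeded it on all 8 arrays of GFP- cells and on none of the 8 of GFP+ cells.

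In the cilia of these neurons an odorant receptor activates a G protein and adenylyl cyclase, and the resulting cAMP opens a channel that lets calcium in. The response ends when cAMP is hydrolysed, when calcium is pumped or exchanged out of the cilium, and when the receptor and the cyclase are turned down by kinases and regulators. These steps also set how strongly a neuron answers when the odor returns.

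The mice carried S100a5-tauGFP, a green fluorescent reporter named for S100a5, the gene of a small calcium-binding protein of olfactory sensory neurons whose expression follows neuronal activity. The 24 mice, of both sexes and 7 to 12 weeks old, spent 40 h in individual chambers with clean air at 3.1 L/min, and from 26 h on received 10 s pulses every 20 min, either of an odorant or of filtered air, the vehicle. Because bourgeonal stands in the sample labels but indole in the title of the series, the agent is called only the odorant here. Olfactory mucosa was dissociated and sorted by fluorescence into GFP+ and GFP- cells, in pools of 3 mice, which gave 4 pools with odorant and 4 with vehicle and 1 Clariom S array for each fraction of each pool. A pool is therefore the replicate, and the GFP+ and GFP- arrays of a pool share their mice. All groups carried the reporter, and no mice without it and no unsorted cells entered.

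Values are log2 probeset signals, and the array medians were 6.29 to 6.76 with a background of 6.57 to 6.87. Omp, the classical marker of mature olfactory sensory neurons, had means of 18.67 in GFP+ and 18.63 in GFP- cells with vehicle, and 18.69 and 18.59 with odorant. Of the 8 mature neuron markers, 7 lay above background on all arrays of every group, and Cngb1 did so on none. The GFP- fraction held other cells as well: all 8 neutrophil markers passed the test as lower in GFP+ cells, with array means of 5.10 to 6.55 in GFP+ and 12.55 to 14.88 in GFP- cells, as did all 7 microvillar and tuft cell markers, 6 of 10 immature neuron markers with vehicle (5 with odorant) and 6 of 8 sustentacular markers with vehicle (2 with odorant). Fewer cells of a type and less RNA per cell cannot be told apart in such sorted bulk samples.

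Among the 8 genes, limma called 4 higher and 2 lower in GFP+ than in GFP- cells of vehicle mice (Benjamini-Hochberg adjusted p under 0.05), where it called 17.7% of all probesets, 7.76% as higher and 9.97% as lower. With odorant it called 2 higher and 2 lower, against 11.4% of all probesets (3.57% higher, 7.84% lower). The median difference of the 8 genes was 0.48 with vehicle and 0.22 with odorant, and that of all probesets 0.082 and 0.10. Averaged over both exposures it called 4 higher and 2 lower, against 25.7% of all probesets (13.4% higher, 12.3% lower). Without vehicle replicate 2 only 3 of the 8 passed with vehicle (Pde4a, Rgs2 and Grk3), and the calls over all probesets went from 1723 higher and 2213 lower to 846 and 1633. The median difference of the 16 genes listed as core odor transduction, Gfy and Rtp2 among them, was 0.12 with vehicle and 0.15 with odorant. Of the 16, 2 and 1 were called higher and 0 lower. With array medians subtracted, 13 and 11 of the 16 core genes were called higher, and 5 and 4 of the 8 termination genes. That setting also called 10363 of all 22206 probesets higher with vehicle and 7757 with odorant, far more than on the deposited values. On the deposited values, Ano2, the calcium-activated chloride channel, differed by 0.57 with vehicle. It lost its call without replicate 1 (difference 0.51, limma adjusted p = 0.10) or replicate 2 (0.59, limma adjusted p = 0.063). Adcy3, the olfactory adenylyl cyclase, differed by 0.41 with vehicle and lost its call whichever pool was left out. Its differences were then 0.35 to 0.46 (limma adjusted p = 0.091 to 0.17). The difference between the 2 sets of genes was not tested.

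**Figure D1:**
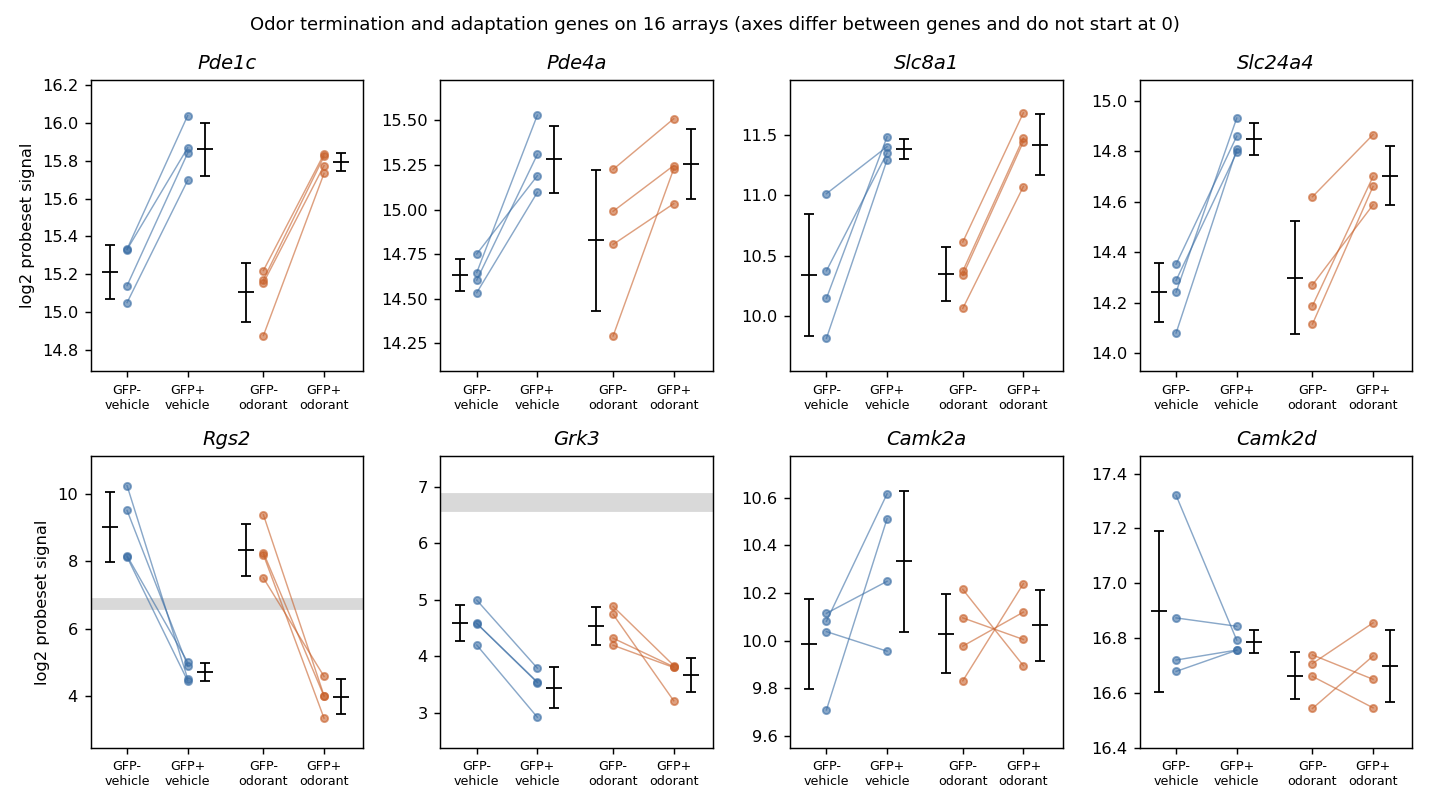
Log2 probeset signal of the 8 genes (vertical axis, scaled per gene) in GFP- and GFP+ cells with vehicle (blue) and odorant (orange). Each point is 1 array, lines join the 2 fractions of a pool, black bars give the mean ± SD (n = 4), and the grey band, visible for Rgs2 and Grk3, is the background of the arrays (6.57 to 6.87). The lines of Pde1c, Pde4a, Slc8a1 and Slc24a4 rise in 8 of 8 pools and those of Rgs2 fall in 8 of 8.

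Both phosphodiesterases were higher in GFP+ cells. Pde1c, a calcium/calmodulin-stimulated enzyme that hydrolyses cAMP in olfactory cilia, had signals of 15.87, 15.84, 16.04 and 15.70 in GFP+ cells and 15.33, 15.14, 15.33 and 15.05 in GFP- cells of the vehicle pools 1 to 4. With odorant the signals were 15.82, 15.77, 15.73 and 15.84 in GFP+ and 15.17, 15.15, 14.88 and 15.22 in GFP- cells. Every GFP+ array lay above every GFP- array. The 2 fractions did not overlap in either direction for 22.9% of all probesets with vehicle, for 16.9% with odorant and for 9.2% over both exposures together. The 8 differences within pools ranged from 0.54 to 0.86. Averaged over both exposures, Pde1c was 1.59-fold higher in GFP+ cells (difference 0.67, SE 0.089, limma adjusted p = 1.6e-05), and it was called in each exposure alone (differences 0.65 and 0.69).

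Pde4a is a cAMP phosphodiesterase that calcium does not stimulate and that lies outside the cilia, in the dendrite, cell body and axon. Its vehicle signals were 15.19, 15.10, 15.53 and 15.31 in GFP+ and 14.75, 14.53, 14.65 and 14.60 in GFP- cells, with no overlap (1.57-fold, 95% interval 1.26 to 1.94, limma adjusted p = 0.0091). With odorant they were 15.23, 15.51, 15.03 and 15.25 in GFP+ and 14.29, 15.23, 14.80 and 14.99 in GFP- cells. There the groups overlapped, because the GFP- array of pool 2 reached the GFP+ range, and the difference of 0.43 (95% interval -0.03 to 0.88) did not pass (limma adjusted p = 0.26). The test of whether the fraction difference changed with the exposure gave -0.22 for Pde4a (limma adjusted p = 0.96), so the exposures are not shown to differ. All 8 pools had the higher value in GFP+ cells (0.23 to 0.94), as did 10.1% of all probesets, and the average over both exposures was 1.45-fold (SE 0.12 on the log2 scale, limma adjusted p = 0.0037). Without vehicle replicate 4 the vehicle difference was 0.63 (limma adjusted p = 0.051), and without vehicle replicate 2 that of Pde1c was 0.63 (0.064).

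Other phosphodiesterases went both ways, with 2 of 21 higher and 5 lower in GFP+ cells with vehicle and 1 and 6 with odorant. The smallest p belonged to Pde2a, a cGMP-stimulated enzyme, at 6.76 ± 0.33 in GFP+ and 9.68 ± 0.70 in GFP- cells with vehicle (SD, n = 4; 7.57-fold lower, limma adjusted p = 0.0001). Its GFP+ mean lay within the background range of the arrays, 6.57 to 6.87, so this fold is limited by the background. Pde8a, a high-affinity cAMP phosphodiesterase, was 2.41-fold lower with vehicle and 3.10-fold lower with odorant (limma adjusted p = 0.00012 and 0.00037). Pde4b was at background on all GFP+ arrays and at least 1.15-fold lower with vehicle. The neutrophil and the microvillar and tuft cell markers were lower in GFP+ cells too, and their part in the result was not tested.

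Both calcium exchangers were higher in GFP+ cells, and Slc8a1 had the widest such difference of the 8 genes. It encodes NCX1, a sodium/calcium exchanger of the plasma membrane. Its vehicle signals were 11.40, 11.49, 11.29 and 11.35 in GFP+ and 11.01, 10.15, 9.81 and 10.37 in GFP- cells, and its odorant signals 11.45, 11.69, 11.07 and 11.48 in GFP+ and 10.34, 10.61, 10.06 and 10.37 in GFP- cells. All 8 GFP+ arrays lay above all 8 GFP- arrays over both exposures. GFP- cells of vehicle pool 1 came closest, so that this pool had the smallest difference, 0.39, of a range up to 1.48. Slc8a1 was 2.07-fold higher with vehicle (difference 1.05, SE 0.23, limma adjusted p = 0.0091) and 2.11-fold higher with odorant (1.08, SE 0.18, limma adjusted p = 0.0017). Without vehicle replicate 2 the vehicle difference was 0.95 (limma adjusted p = 0.071).

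Slc24a4 encodes NCKX4, the potassium-dependent sodium/calcium exchanger needed for rapid recovery of olfactory neurons after an odor. Its vehicle signals were 14.86, 14.93, 14.81 and 14.80 in GFP+ and 14.35, 14.24, 14.08 and 14.29 in GFP- cells, with no overlap. With odorant they were 14.70, 14.87, 14.59 and 14.66 in GFP+ and 14.19, 14.62, 14.27 and 14.12 in GFP- cells, where pool 2 again had the highest GFP- value and made the groups overlap. The odorant difference of 0.41 (95% interval 0.06 to 0.75) did not pass (limma adjusted p = 0.14), and its change between exposures was -0.20 (limma adjusted p = 0.96). Averaged over exposures, Slc24a4 was 1.42-fold higher in GFP+ cells (SE 0.092 on the log2 scale, limma adjusted p = 0.00045) and higher in 8 of 8 pools (0.25 to 0.73). Without vehicle replicate 2 the vehicle difference was 0.58 (limma adjusted p = 0.063).

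The promoters of the 2 exchangers, whose signals went together over the arrays (r = 0.91 over 16 arrays, 0.66 after subtraction of group means, a description of arrays that share pools), are shown because both genes were higher in GFP+ cells. They are the 250 bases before the RefSeq start in build GRCm38.p6, read 5′ to 3′ on the gene's strand, at chr17:81738388-81738637 (minus strand) for Slc8a1 and chr12:102128477-102128726 (plus strand) for Slc24a4.
Slc8a1: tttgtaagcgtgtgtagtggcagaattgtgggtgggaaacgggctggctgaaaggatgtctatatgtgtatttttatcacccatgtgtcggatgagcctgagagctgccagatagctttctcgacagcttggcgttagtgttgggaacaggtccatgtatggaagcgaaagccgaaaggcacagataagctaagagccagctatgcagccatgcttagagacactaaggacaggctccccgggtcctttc
Slc24a4: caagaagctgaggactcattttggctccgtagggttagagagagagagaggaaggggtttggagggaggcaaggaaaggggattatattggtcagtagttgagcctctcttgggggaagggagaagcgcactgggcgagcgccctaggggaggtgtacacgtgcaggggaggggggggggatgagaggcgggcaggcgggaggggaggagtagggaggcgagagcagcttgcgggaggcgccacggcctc
Neither holds any of 5 motifs searched on both strands: the cAMP response element TGACGTCA and its core TGACG, the EBF site, the EGR site GCGTGGGCG and the homeodomain core TAATTA. Capitals would mark a match. The core, which is also part of the full element, occurs in 17.8% of 32851 such windows and the others in 1.55% (full element), 0.779%, 0.536% and 4.84%. GC content was 50.4% for Slc8a1 and 62.8% for Slc24a4, with a median of 52.4% over all windows. In total 6 of the 9 genes, in 10 windows, had a promoter sequence available here, and Camk2a, Grk3 and Arrb2 did not.

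Of 13 other calcium exchangers and pumps, 2 were called higher and 2 lower with vehicle, and 1 and 2 with odorant. Slc24a2, another potassium-dependent exchanger (NCKX2), was 1.99-fold higher with vehicle (14.04 ± 0.12 against 13.05 ± 0.24, SD, n = 4; limma adjusted p = 0.0011). With odorant it was 1.64-fold higher with a limma adjusted p = 0.0498, a call lost without odorant replicates 1 (0.19), 3 (0.12) or 4 (0.19) and after quantile normalization (0.071). Atp2a3, a calcium pump of the endoplasmic reticulum, was lower in GFP+ cells by at least 7.13-fold with vehicle and at least 7.49-fold with odorant. Atp2a2, the widespread pump of the same kind, was 1.39-fold higher with vehicle (limma adjusted p = 0.036), a call lost whichever vehicle pool was left out (0.083 to 0.15).

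Grk3, the kinase that phosphorylates active odorant receptors, gave only values under background. Its signals were 2.92, 3.54, 3.53 and 3.79 in GFP+ and 4.20, 4.58, 4.58 and 4.99 in GFP- cells with vehicle, and 3.83, 3.81, 3.21 and 3.80 in GFP+ and 4.88, 4.32, 4.74 and 4.19 in GFP- cells with odorant. GFP+ arrays were lower in both exposures (limma adjusted p = 0.0047 and 0.018), but no fold is given, since no level above background was measured in either fraction. The odorant call was lost without odorant replicates 1 (0.076) or 3 (0.12). Of 7 other receptor kinases and arrestins, 1 was called higher and 2 lower with vehicle, and 0 and 1 with odorant. Arrb1, the close relative of Arrb2, was at background on the GFP+ arrays with vehicle and at least 1.23-fold lower there (limma adjusted p = 0.0015). Grk4 was 1.50-fold higher with vehicle, a call lost whichever vehicle pool was left out (0.058 to 0.088).

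The subunits of calcium/calmodulin kinase II, which phosphorylates the olfactory adenylyl cyclase during adaptation, did not pass between the fractions. Camk2d had overlapping signals throughout: 16.76, 16.79, 16.84 and 16.76 in GFP+ and 16.72, 17.32, 16.87 and 16.68 in GFP- cells with vehicle, and 16.86, 16.65, 16.73 and 16.55 in GFP+ and 16.71, 16.74, 16.54 and 16.66 in GFP- cells with odorant. Vehicle pool 2 had the single high GFP- value. The average difference was -0.039 (95% interval -0.25 to 0.17, limma adjusted p = 0.82), with 4 of 8 pools higher in GFP+ cells. Its sign turned to 0.30 (limma adjusted p = 0.012) when array medians were subtracted, which moved the median of all probesets to 0.44, above that of Camk2d.

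Camk2a signals were 10.62, 10.25, 9.96 and 10.51 in GFP+ and 10.08, 10.11, 10.04 and 9.71 in GFP- cells with vehicle, and 10.24, 9.89, 10.00 and 10.12 in GFP+ and 9.83, 10.21, 10.10 and 9.98 in GFP- cells with odorant. The fractions overlapped in both exposures, and 5 of 8 pools were higher in GFP+ cells. The vehicle difference of 0.35 (95% interval -0.04 to 0.74) had a limma adjusted p = 0.21, and the odorant difference was 0.04 (0.92). With array medians subtracted the vehicle difference was 0.71 (limma adjusted p = 0.0068), against 0.45 for the median of all probesets. Of 14 other calcium/calmodulin kinases and calmodulin regulators, 2 were called higher and 1 lower with vehicle, and 1 and 1 with odorant. Pcp4l1, a calmodulin-binding protein, was 2.89-fold higher with vehicle and 3.33-fold higher with odorant (limma adjusted p = 0.00016 and 5.2e-05). Camk2b, another subunit of the kinase, was at least 2.15-fold and 1.51-fold lower.

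Rgs2 went the other way from the phosphodiesterases and exchangers. It belongs to the proteins that shorten G protein signals and is known to restrain adenylyl cyclase in olfactory neurons. It is also an early response gene in many cell types. Its signals were 8.12, 9.51, 10.24 and 8.16 in GFP- and 4.45, 4.89, 4.51 and 5.002 in GFP+ cells with vehicle, and 9.38, 8.25, 8.19 and 7.50 in GFP- and 4.01, 3.99, 3.34 and 4.58 in GFP+ cells with odorant. The fractions did not overlap, and all GFP+ values were under background. In GFP+ cells Rgs2 was lower by at least 5.12-fold with vehicle and at least 2.96-fold with odorant (limma adjusted p = 5.4e-05 and 1.2e-05), and lower in 8 of 8 pools, as were 10.1% of all probesets.

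The 3 highest Rgs2 values in GFP- cells, 10.24, 9.51 and 9.38, came from vehicle pools 3 and 2 and odorant pool 1. The same 3 arrays had the highest means of the neutrophil markers, 14.84, 14.88 and 14.79, where the other 5 GFP- arrays had 12.55 to 13.54. They also had the highest means of the 27 immediate early probesets, 9.66, 9.69 and 10.00, where the others had 9.22 to 9.47. The macrophage markers had their highest means there too, 8.25, 8.28 and 8.79, where the others had 7.69 to 8.14. The lymphocyte markers and the microvillar and tuft cell markers did not have their 3 highest means on these arrays. In the same order the lymphocyte means were 6.11, 5.41 and 5.10, where the others had 4.96 to 5.31. All of these lay under the background range of 6.57 to 6.87. The microvillar and tuft cell means were 7.81, 8.07 and 8.66, where the others had 7.88 to 8.38. On GFP+ arrays the neutrophil means were 5.10 to 6.55 and the immediate early means 7.30 to 7.70, with 18 of the 27 immediate early probesets called lower in GFP+ cells with vehicle and 15 with odorant. The part of any of these in the Rgs2 result was not tested.

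**Figure D2:**
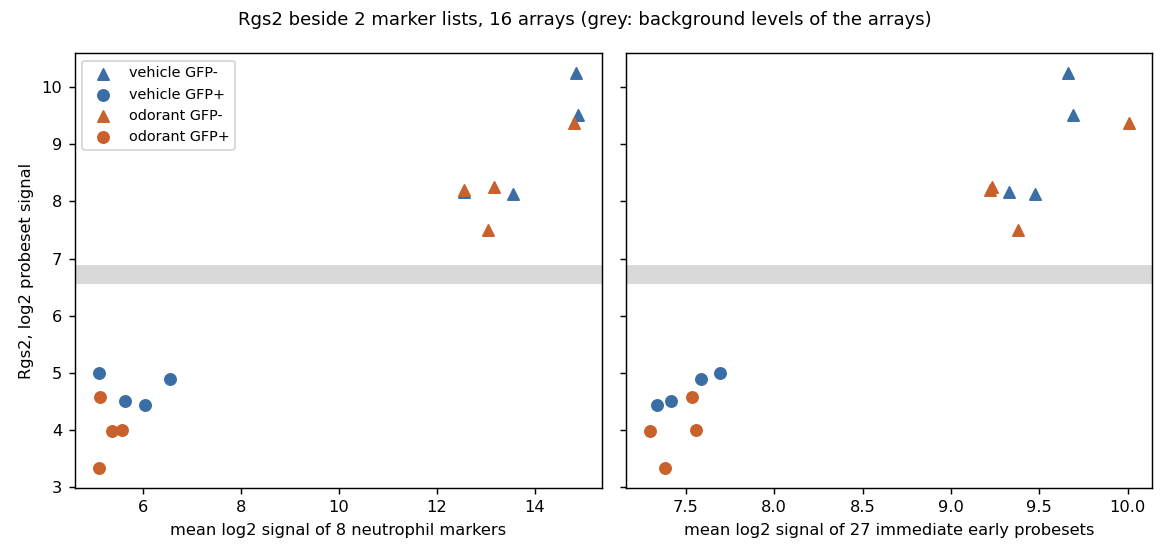
Rgs2 log2 signal (vertical axis) against the mean log2 signal of 8 neutrophil markers (left) and of 27 immediate early probesets (right), 1 point per array for 16 arrays. Circles are GFP+ and triangles GFP- cells, blue vehicle and orange odorant, and the grey band is the background (6.57 to 6.87). The 3 GFP- arrays with Rgs2 above 9 lie at neutrophil means of 14.79 to 14.88.

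The Rgs2 promoter (chr1:144004150-144004399, minus strand, GRCm38.p6, RefSeq) is shown because it holds a searched motif, unlike the 2 exchanger promoters. Capitals mark the core TGACG of the cAMP response element, found at position -67 on the gene's strand and, as CGTCA, at -185 on the opposite strand, counted from the start.
Rgs2: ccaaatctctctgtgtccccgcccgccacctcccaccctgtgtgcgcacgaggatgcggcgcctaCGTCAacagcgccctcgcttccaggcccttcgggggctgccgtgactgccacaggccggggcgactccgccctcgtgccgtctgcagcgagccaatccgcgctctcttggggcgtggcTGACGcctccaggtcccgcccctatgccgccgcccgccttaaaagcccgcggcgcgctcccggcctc
The same core also occurs in 1 of the 3 Pde4a windows, at -50 on the opposite strand, and in 17.8% of all 32851 windows. It is thus a common match, found here in genes on both sides of the fraction comparison. The Pde1c and Camk2d windows hold none of the searched motifs. The full element was not found in the Rgs2 letters, and GC content was 72.4%. A match is a description of the sequence and not evidence of binding.

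Of 20 other RGS genes, 1 was called higher and 6 lower in GFP+ cells with vehicle, and 2 and 4 with odorant. Rgs5 was at 8.57 ± 0.78 in GFP+ and 13.52 ± 0.66 in GFP- cells with vehicle (SD, n = 4; 30.9-fold lower, limma adjusted p = 1.4e-05) and 30.1-fold lower with odorant. Rgs13 was at least 6.10-fold and at least 6.79-fold lower. Rgs18, an RGS protein of blood cells, was at least 1.67-fold lower with vehicle. Of 15 subunits of protein kinase A and other adenylyl cyclases, 0 were called higher and 2 lower in each exposure, and the 2 with the smallest p with vehicle, Adcy6 and Adcy7, were at background there in both fractions. Leaving out single pools gave 1 lower call with vehicle and 0 to 1 with odorant.

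Calcium sensors of neurons had 6 of 12 called higher and 1 lower in GFP+ cells with vehicle (3 to 5 higher without single vehicle pools), and 3 and 1 with odorant, where 7.76% and 3.57% of all probesets were called higher. S100a5, whose reporter defined the sort and which is no independent evidence of it, was 1.91-fold higher with vehicle. Necab1, an EF-hand calcium-binding protein, was 2.42-fold higher with vehicle and 2.14-fold with odorant (limma adjusted p = 0.0005 and 0.0011). Calb2, the buffer calretinin, was 21.0-fold and 21.4-fold lower.

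**Figure D3:**
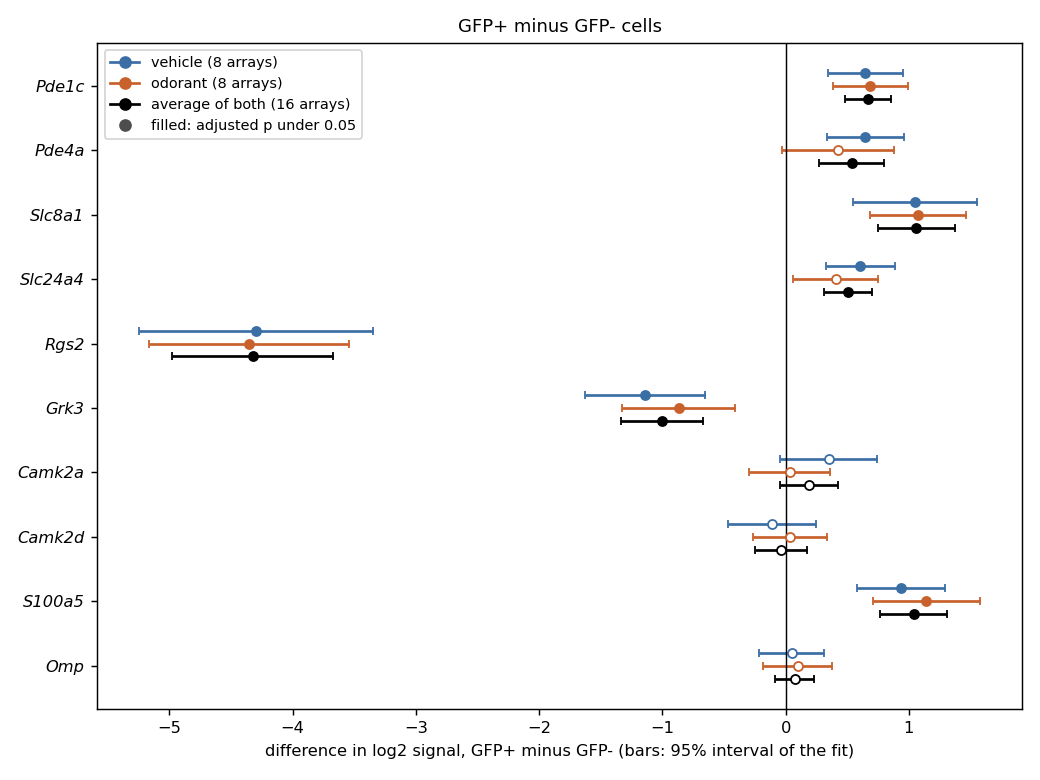
Difference in log2 signal, GFP+ minus GFP- (horizontal axis), of the 8 genes, S100a5 and Omp with vehicle, with odorant and averaged over both. Points are limma estimates, bars their 95% intervals, and filled points have an adjusted p under 0.05. Slc8a1 lies at 1.05 and 1.08, Rgs2 at -4.30 and -4.35, and both Camk2 subunits include 0 in every interval. All GFP+ values of Rgs2 and all values of Grk3 lay under background, so their differences are not between measured levels.

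Exposure to the odorant for 14 h was not followed by a called difference in any of the 8 genes. Limma called 0 of 22206 probesets (0.0%) in GFP+ cells, in GFP- cells and in the test of whether the exposure effect differed between fractions. At an unadjusted p under 0.05 there were 848 (3.82%), 1520 (6.84%) and 1093 (4.92%), and of the 8 genes 1, 0 and 0. In GFP+ cells Pde1c differed by -0.069 (95% interval -0.35 to 0.21), Slc8a1 by 0.036 (-0.30 to 0.37) and Slc24a4 by -0.14 (-0.42 to 0.13). For these 3 genes the intervals reach down to -0.42 and up to 0.37 log2 units.

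Camk2a had the widest interval among the genes above background in GFP+ cells, -0.64 to 0.11 around -0.27. Rgs2 was the 1 gene that met the unadjusted threshold in GFP+ cells (difference -0.73, limma adjusted p = 0.999), but all 8 arrays were at background, so the difference is not one between measured levels. In GFP- cells Rgs2 differed by -0.68 (95% interval -1.78 to 0.43, limma adjusted p = 0.79), Camk2d by -0.24 and Pde4a by 0.19. Odorant and vehicle values overlapped for all 8 genes in both fractions, where 2.3% of all probesets did not overlap in GFP+ and 4.16% in GFP- cells. None of the genes of the other signaling lists was called for exposure or interaction.

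**Figure D4:**
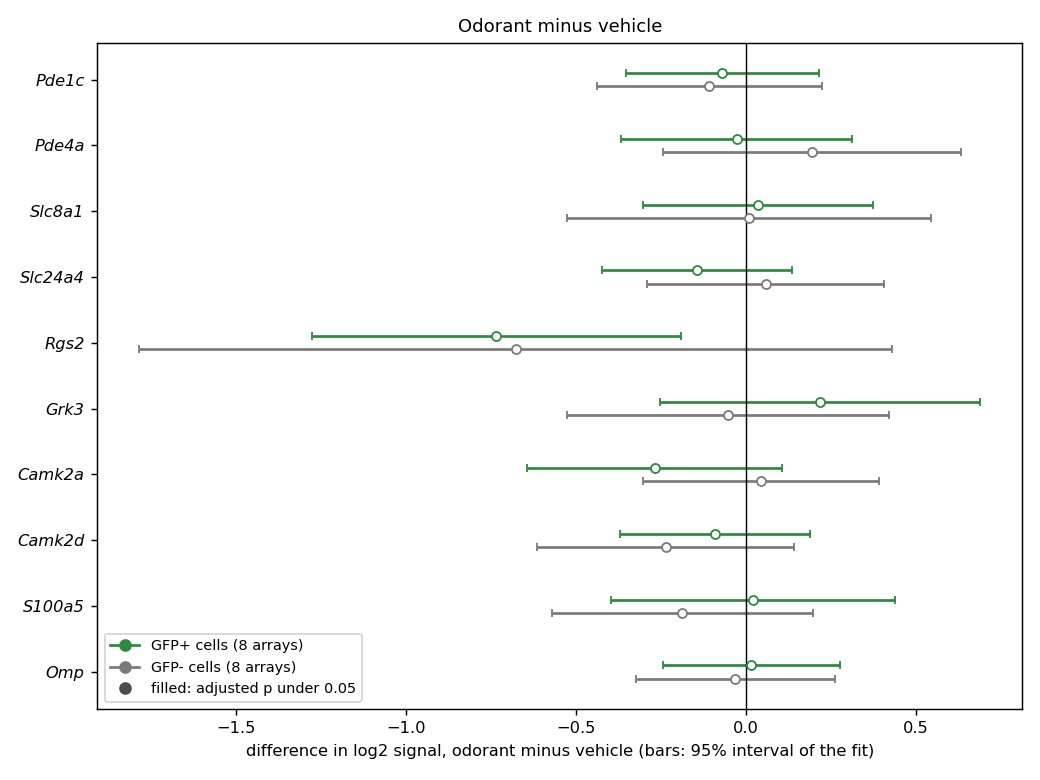
Difference in log2 signal, odorant minus vehicle (horizontal axis), in GFP+ (green) and GFP- cells (grey) for the 8 genes, S100a5 and Omp. Points are limma estimates from 4 against 4 arrays, bars their 95% intervals, and all points are open because none passed. Rgs2 in GFP- cells has the widest interval, -1.78 to 0.43.

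Ordered by group mean, Pde1c, Pde4a, Slc24a4 and Slc8a1 had both GFP+ groups above both GFP- groups. Within a fraction, neighbouring groups differed by less than the larger SD for Pde1c, Pde4a and Slc8a1. Slc24a4 differed by 0.14 between vehicle and odorant GFP+ cells, more than the larger SD of 0.12, with overlapping values. Rgs2 and Grk3 had both GFP- groups on top. Camk2a and Camk2d had no neighbours in the order that differed beyond the larger SD.

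The genes whose signal most resembled each member over the 16 arrays, among 9962 candidates above background in at least 1 group, are given as descriptions, since the arrays share pools and the fraction drives much of r. For Pde1c these were Clip4 (r = 0.97 over 16 arrays) and Inpp5f (0.97), which fell to 0.76 and 0.62 after subtraction of group means. For Pde4a they were Kcna6, a potassium channel (0.97), and Elmo2 (0.96), and here r stayed at 0.93 and 0.94 within groups. Slc24a4 resembled Gpr158 (0.94) and Scn4b, a sodium channel subunit (0.94), and Slc8a1 resembled Gpld1 (0.93) and Thsd7a (0.93). Rgs2 resembled Clec12a, a receptor of myeloid cells (0.99), and Cybb, the phagocyte oxidase subunit (0.99), with 0.90 and 0.89 within groups. Both kinds of r for Rgs2 include its values on the 8 GFP+ arrays, which all lay under background. Camk2a came closest to Map3k12 (0.79) and Camk2d to Ptp4a2 (0.79).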

How the data were processed

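RNA of sorted olfactory mucosa cells was hybridised to 16 Clariom S arrays (4 pools of 3 mice per exposure, 2 fractions each), from 50 to 100 ng of total RNA per the labels. The values are the deposited log2 probeset signals of the series matrix, made by the authors with Affymetrix Expression Console per the submitters' processing notes. For its version and the normalization, the sources used here give no statement. No fold change, p-value or count came from the authors.

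Of 28846 table rows, 22206 gene probesets were kept, 19572 with a symbol in GEO's platform annotation. Groups came from the sample titles and agent labels. Limma 3.58.1 in R 4.3.3 (lmFit, eBayes) was fitted to all gene probesets without a block for 6 comparisons, and two-sided p-values were adjusted after Benjamini and Hochberg over all probesets, with a threshold of 0.05. Each fraction and each exposure comparison used its own 8 arrays, and the average and the interaction used all 16. Intervals are 95%. The code was tested on simulated data. Background per array is the 95th percentile of 23 antigenomic probesets. A group whose arrays, or whose mean, lay at or under it has only a bound, so a fold is given as "at least" against the mean, over its arrays, of the higher of background and signal. The mean criterion was added after values were seen and touches only genes outside the 9. All 9 genes are named by rule, and of other lists at most the 4 with the smallest p with vehicle. Members and lists were chosen with earlier results of these data known.

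GFP+ and GFP- arrays of 1 number and exposure come from 1 pool, as the titles say, so the numbers pair them. Deviations from group means correlated with r of 0.014 to 0.36 in the 8 pairs. Nothing in the labels ties odorant to vehicle arrays of 1 number, and no batch is named there. The alternatives were quantile normalization, subtraction of array medians, leaving out dim probesets (background exceeded on fewer than 4 arrays), a variance trend, 1 fit over all arrays, the replicate block, and leaving out each pool. Precision is limited by the number of arrays (4 per group).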

Additional observations from a re-analysis of the deposited data

Results flagged for a closer look

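Grk3 in GFP+ cells with odorant had 1 array far from the other 3: replicate 3 at 3.21 against 3.80 to 3.83, with a gap of 0.945 of the group's range. All 4 values lay under background. The limit such a gap had to pass is one that chance exceeds in about 1 of 20 groups, and every member was looked at in all 4 groups.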

How the results depend on the processing

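Of the comparisons of single genes with alternatives other than leaving out a pool, 254 kept direction and call, 4 newly passed and 7 turned sign. Of those leaving out a pool, 289 kept both, 6 no longer passed and 25 turned sign. The number of the 8 genes called between fractions with vehicle was 6, and 3 to 6 without single pools (3 without vehicle replicate 2). With odorant it was 4, and 3 to 4 without single pools. Averaged over exposures it was 6 whichever pool was left out. The replicate block gave 6, 4 and 6 calls and changed no call of the 8 genes. For exposure and interaction it was 0 under every alternative.

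Scaling moved the direction of calls over all probesets. With vehicle the higher and lower calls were 1723 and 2213, 2544 and 2034 after quantile normalization, and 10363 and 1687 with array medians subtracted. With odorant they were 793 and 1742, 1266 and 1662, and 7757 and 1520, and averaged 2979 and 2736, 4342 and 2619, and 15118 and 1933. Subtraction moved the median difference of all probesets to 0.45, 0.42 and 0.44. Under it the genes newly passing were Camk2a with vehicle (0.71) and averaged (0.53), Pde4a (0.74) and Slc24a4 (0.72) with odorant, and, with its sign turned, Camk2d averaged.

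Signs turned for Camk2d with vehicle (0.2521) and averaged (0.3009) with array medians subtracted, and in the interaction for Pde1c (-0.009203) and Slc8a1 (-0.01975). After quantile normalization they turned for Pde4a in GFP+ cells (0.01786) and Slc8a1 in GFP- cells (-0.01015) by exposure, and for Pde1c in the interaction (-0.000707). Leaving out single pools gave, between fractions, ranges of -0.1741 to 0.02776 for Camk2d with vehicle, -0.01842 to 0.08361 with odorant and -0.07001 to 0.0309 averaged, and of -0.0895 to 0.1536 for Camk2a with odorant. By exposure in GFP+ cells the ranges were -0.1119 to 0.05581 for Pde4a and -0.05188 to 0.1521 for Slc8a1. In GFP- cells they were -0.04964 to 0.1184 for Slc24a4, -0.166 to 0.2343 for Slc8a1, -0.1836 to 0.08142 for Grk3 and -0.04834 to 0.1103 for Camk2a. In the interaction they were -0.01817 to 0.06191 for Pde1c, -0.1911 to 0.1724 for Slc8a1 and -0.5358 to 0.3236 for Rgs2. The cause was not tested. Without dim probesets Grk3 was not tested, nor Rgs2 by exposure in GFP+ cells.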
